A study of Mus musculus with 8 samples.

Results

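The genes described here are 9 components of the epithelial tight junction, followed in mouse liver by RNA sequencing. They were taken by symbol from the 19267 genes of the count table, all 9 were found there, and all 9 passed the filter on low counts that left 13993 genes for testing. They are the claudins *Cldn1*, *Cldn2*, *Cldn3* and *Cldn12*, occludin (*Ocln*), junctional adhesion molecule A (*F11r*), and *Tjp1*, *Tjp3* and *Cgn*, which encode ZO-1, ZO-3 and cingulin of the cytoplasmic plaque.

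Livers came from male C57BL/6 mice aged 9 weeks, in 4 groups of 2 libraries each. *Elf4-/-* denotes Elf4fl/fl-Villin-Cre mice, in which Cre under the villin promoter was used to delete *Elf4* from intestinal epithelium. *Elf4* encodes an ETS transcription factor. Whether any liver cells also lost *Elf4* is not known from these data. WT denotes the control mice, which carried Cre as well. From 6 weeks of age mice of both genotypes were pair-fed a Lieber-DeCarli liquid diet for 21 days, with 5% (w/v) alcohol in the groups WT-EtOH and *Elf4-/-*-EtOH and with isocaloric maltose dextrin in WT-Control and *Elf4-/-*-Control. The labels do not say whether the libraries of a group came from separate animals, so p-values measure the spread between these libraries, which may in part be technical.

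Tight junctions seal the space between neighbouring epithelial cells. Claudin strands set which ions and solutes pass, occludin and the adhesion molecules sit in the same strands, and ZO proteins and cingulin tie the strands to the actin cytoskeleton. In liver these junctions close the bile canaliculus between hepatocytes and line the bile ducts, and thereby separate bile from blood.

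In the livers of EtOH-fed mice *Cldn2*, a claudin that forms a paracellular channel for cations and water, was higher by 2.45-fold, and *Cldn3* and *Ocln* were lower by 2.47-fold and 2.32-fold, as averages over both genotypes. *Tjp3* was lower by 1.92-fold on the same average, a call that single libraries decided. The other 5 genes did not pass the test on that average, and none of the 9 passed the test between *Elf4-/-* and WT liver. The proximal promoters of the 4 genes that passed are shown because the diet comparison turns on these genes. Each runs from 250 bases before to 50 bases after a start site in RefSeq (GRCm38.p6), 5′ to 3′ on the strand of the gene. *Cldn2* lies at chrX:139800558-139800857 on the plus strand, *Cldn3* at chr5:134985964-134986263 on the plus strand, *Ocln* at chr13:100552669-100552968 on the minus strand and *Tjp3* at chr10:81291532-81291831 on the minus strand. RefSeq lists 2 starts for *Ocln* and for *Tjp3*, and the outer start is shown for each. Capitals mark letters that match a searched motif.
Cldn2: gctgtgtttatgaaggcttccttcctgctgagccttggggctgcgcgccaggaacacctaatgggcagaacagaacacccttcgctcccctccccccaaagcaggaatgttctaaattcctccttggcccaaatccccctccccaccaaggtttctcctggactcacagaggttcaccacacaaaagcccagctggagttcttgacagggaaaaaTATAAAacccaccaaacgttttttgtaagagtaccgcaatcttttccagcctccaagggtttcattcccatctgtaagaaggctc
Cldn3: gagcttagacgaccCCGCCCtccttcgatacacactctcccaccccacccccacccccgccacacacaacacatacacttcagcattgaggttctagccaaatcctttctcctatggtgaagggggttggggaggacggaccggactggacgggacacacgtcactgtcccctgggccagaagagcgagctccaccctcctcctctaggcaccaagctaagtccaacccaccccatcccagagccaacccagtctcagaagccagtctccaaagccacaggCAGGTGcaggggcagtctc
Ocln: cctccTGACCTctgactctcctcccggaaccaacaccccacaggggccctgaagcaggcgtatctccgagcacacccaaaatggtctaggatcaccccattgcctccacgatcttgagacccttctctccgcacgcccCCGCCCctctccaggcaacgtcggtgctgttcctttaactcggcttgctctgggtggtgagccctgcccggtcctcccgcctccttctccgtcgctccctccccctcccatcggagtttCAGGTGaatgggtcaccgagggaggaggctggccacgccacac
Tjp3: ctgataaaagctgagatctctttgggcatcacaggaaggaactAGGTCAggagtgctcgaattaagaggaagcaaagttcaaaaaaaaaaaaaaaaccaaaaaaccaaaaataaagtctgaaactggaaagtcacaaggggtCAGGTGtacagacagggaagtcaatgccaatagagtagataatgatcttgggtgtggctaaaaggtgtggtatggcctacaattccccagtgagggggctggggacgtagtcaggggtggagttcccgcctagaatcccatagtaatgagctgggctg

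The 6 motifs were searched on both strands, and no matches overlapped. They were the TATA box TATAAA, found in 13.62% of all 32851 promoters of the same length, the GC box GGGCGG (35.66%), the ETS core with its flank CCGGAAG (8.86%), the Snail-type E box CAGGTG (20.21%), the TCF/LEF core CTTTGAT (3.73%) and the nuclear receptor half-site AGGTCA (16.26%). *Cldn2* was the only gene of the 9 with the TATA box in a window, its first base 35 bases before the start. A GC box was found in the printed windows of *Cldn3* and *Ocln*, the E box in those of *Cldn3*, *Ocln* and *Tjp3*, and the half-site in those of *Ocln* and *Tjp3*. The letters of the ETS and TCF/LEF motifs were in none of the 4 printed windows, which says only that these letters are not there. The CpG count differed between them, with 17 CpG and 64.0% GC in *Ocln*, 9 and 60.7% in *Cldn3*, 5 and 51.3% in *Cldn2*, and 3 and 45.3% in *Tjp3*, where the median promoter had 7 CpG and 52.7% GC. A match of letters is a description and not a binding site.

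Library totals ran from 6171051 to 9157362 counts. The 9 genes had between 42 counts (*Ocln*) and 791 counts (*Cldn3*) in a library, for which counting alone gives an error of 15.4% and 3.56%. Levels are given as CPM (counts relative to the library total, scaled by TMM factors), and comparisons as log2 fold changes ± SE from the quasi-likelihood test of edgeR, adjusted after Benjamini and Hochberg over 13993 genes. On the first principal component, which held 51.6% of the variance and split the libraries by diet, *Elf4-/-*-EtOH replicate 2 lay at 17.4, between the Control libraries (at most -29.98) and the other EtOH libraries (at least 52.04). On the second component, which held 12.9% of the variance, *Elf4-/-*-EtOH replicate 1 lay at -56.47, apart from all other libraries (-11.21 to 25.78). Both libraries of this group thus stood apart on a component. The diet values of the 9 genes in *Elf4-/-* and the genotype values named under EtOH are therefore also given without each *Elf4-/-*-EtOH library. Hepatocyte markers were abundant in every library, with 6 genes including *Alb* and *Apoa1* together at 54600 to 76000 CPM in WT-Control, 36500 to 42400 CPM in WT-EtOH, 66600 to 73500 CPM in *Elf4-/-*-Control and 43900 to 56500 CPM in *Elf4-/-*-EtOH. *Elf4* itself had 6 to 36 counts and did not pass the test between genotypes, which checks the labels only weakly because the deletion was directed at the intestine. For diet averaged over genotypes *Elf4* passed upward at 1.4 ± 0.39 (edgeR, adjusted p = 0.0254), as did 14.1% of all genes tested.

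**Figure D1:**
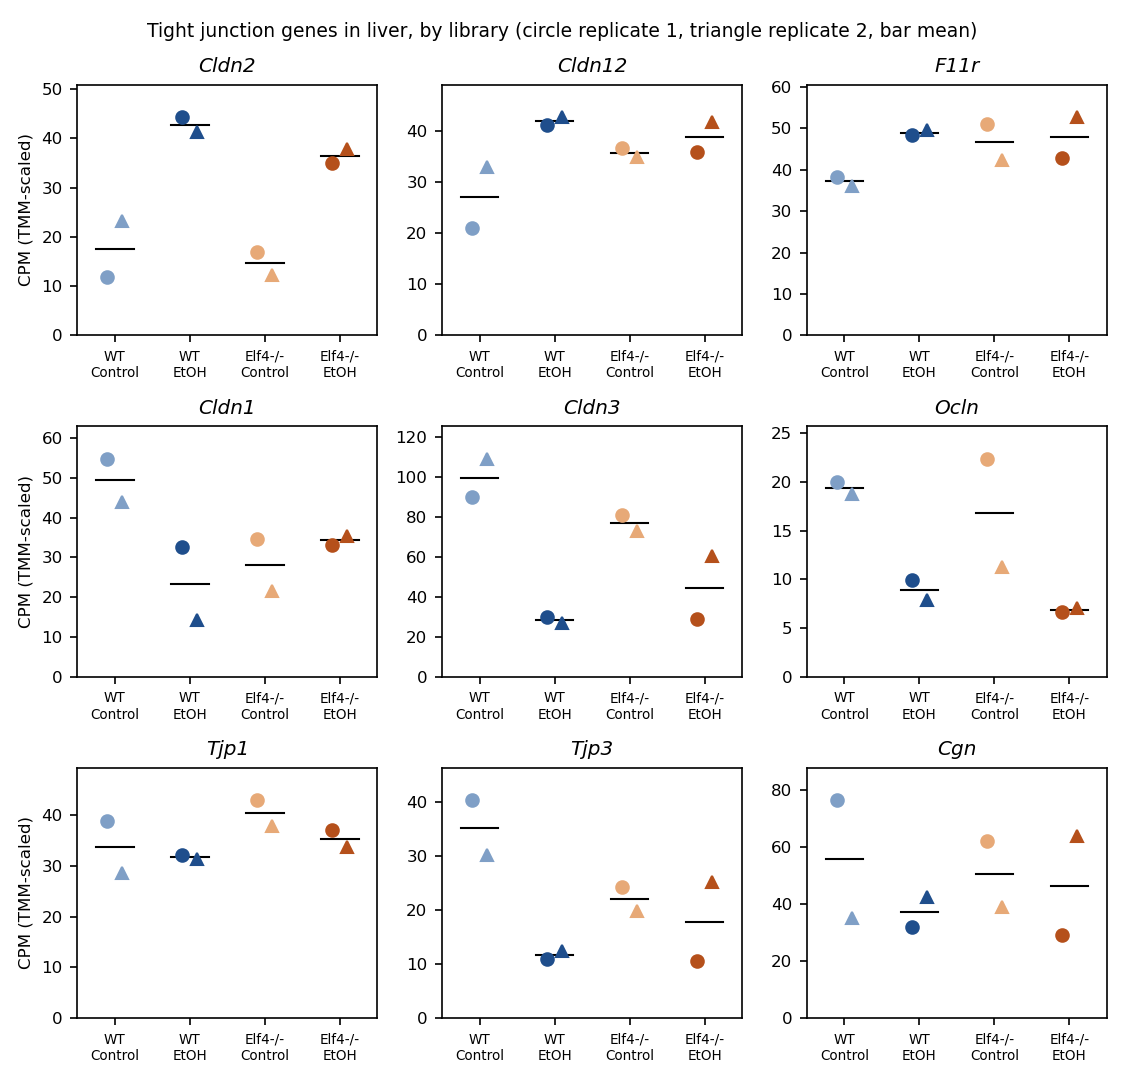
Expression of the 9 tight junction genes in each of the 8 liver libraries, in CPM on a linear axis that starts at 0, by group. Circles are replicate 1, triangles replicate 2 and bars the group mean. The 4 EtOH libraries of *Cldn2* (35.1 to 44.3 CPM) lie above its 4 Control libraries (11.9 to 23.2 CPM), and those of *Cldn3* and *Ocln* lie below theirs.

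The first comparison asked how alcohol feeding moved these genes, over both genotypes and within each. Averaged over genotypes, 4 of the 9 genes passed the threshold, *Cldn2* upward and *Cldn3*, *Ocln* and *Tjp3* downward, where 28.0% of all genes tested passed (14.1% upward and 13.8% downward). The median log2 difference of the 9 genes was -0.35, beside 0.01 over all genes tested. In 3 of the 9 genes (*Cldn2*, *Cldn3* and *Ocln*) the 4 EtOH libraries did not overlap the 4 Control libraries, as in 27.8% of all genes tested, 13.9% with EtOH higher (here *Cldn2*) and 14.0% with EtOH lower (here *Cldn3* and *Ocln*). For 2 libraries against 2, within a genotype or a diet, the share of all genes that did not overlap was not counted. Such separations are given below as description only. In WT mice alone the same 4 genes passed, where 21.6% of all genes did, with a median of -0.57 beside 0.01. In *Elf4-/-* mice alone *Cldn2* passed, where 2.89% of all genes did, with a median of -0.12 beside 0.01. The count in WT ranged from 0 to 6 and that in *Elf4-/-* from 0 to 3 when single libraries were left out, the former being 0 without WT-EtOH replicate 2 and the latter 3 without *Elf4-/-*-EtOH replicate 2.

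*Cldn2* spans bases 139800828 to 139811386 of chromosome X (GRCm38, plus strand). It was measured at 11.9 and 23.2 CPM in WT-Control, 44.3 and 41.3 CPM in WT-EtOH, 17.0 and 12.2 CPM in *Elf4-/-*-Control, and 35.1 and 37.8 CPM in *Elf4-/-*-EtOH. Every EtOH library was above every Control library, and the 4 EtOH libraries lay close together. Its log2 fold change was 1.30 ± 0.21 averaged over genotypes (edgeR, adjusted p = 0.00206), and it kept passing in all 8 fits that left out a library, at 1.09 to 1.57. Within genotypes it was 1.28 ± 0.29 in WT (edgeR, adjusted p = 0.0143) and 1.31 ± 0.29 in *Elf4-/-* (adjusted p = 0.0449). The WT call was lost without WT-Control replicate 1 (0.88), WT-EtOH replicate 1 (1.23) or WT-EtOH replicate 2 (1.33). The *Elf4-/-* call was lost without either *Elf4-/-*-Control library (1.57 without replicate 1 and 1.10 without replicate 2), without *Elf4-/-*-EtOH replicate 1 (1.36; it held at 1.23 without replicate 2), without WT-EtOH replicate 1 or replicate 2 (1.29 each), with the replicate number as a block (1.30, edgeR adjusted p = 0.0702), with scaling by library totals (1.27) and with only the 4 *Elf4-/-* libraries in the fit (1.31).

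*Cldn3*, a barrier-forming claudin, is a gene of 1 exon on chromosome 5 at 134986214 to 134987472 on the plus strand. It reached 89.9 and 109 CPM in WT-Control, 29.8 and 26.7 CPM in WT-EtOH, 81.1 and 73.1 CPM in *Elf4-/-*-Control, and 28.7 and 60.4 CPM in *Elf4-/-*-EtOH. The EtOH libraries were all below the Control libraries, 3 of them close together and *Elf4-/-*-EtOH replicate 2 between these and the Control libraries. This was a log2 fold change of -1.30 ± 0.21 averaged over genotypes (edgeR, adjusted p = 0.00246), and -1.64 to -1.09 with a library left out, past the threshold each time. In WT it was -1.82 ± 0.31 (edgeR, adjusted p = 0.00468), a 3.52-fold lower level, and -1.74 without WT-EtOH replicate 2, where the call was lost (adjusted p = 0.0541). In *Elf4-/-* it was -0.79 ± 0.30 (edgeR, adjusted p = 0.171), and the *Elf4-/-*-EtOH libraries decided its size. It was -0.35 without replicate 1 (edgeR, adjusted p = 0.478) and -1.45 without replicate 2, where it passed (adjusted p = 0.0032). The exon of *Cldn3* shares bases with the antisense gene *Wbscr25* on the other strand. *Wbscr25* also fell, by 1.54 on the log2 scale (edgeR, adjusted p = 0.00713), and had 15 to 125 counts beside 180 to 791 of *Cldn3*. Whether the counting used strand was not stated, so reads of the pair cannot be told apart.

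*Cldn1*, a barrier claudin on chromosome 16 at 26356642 to 26371841 on the minus strand, did not pass. It was measured at 54.8 and 44.0 CPM in WT-Control, 32.5 and 14.3 CPM in WT-EtOH, 34.6 and 21.5 CPM in *Elf4-/-*-Control, and 33.2 and 35.4 CPM in *Elf4-/-*-EtOH. Both WT-Control libraries were above both WT-EtOH libraries, whereas the *Elf4-/-* groups overlapped. Log2 fold changes were -1.09 ± 0.36 in WT (edgeR, adjusted p = 0.0543), 0.28 ± 0.35 in *Elf4-/-* (adjusted p = 0.692) and -0.40 ± 0.25 on average (adjusted p = 0.254). The *Elf4-/-* value was 0.33 and 0.21 without *Elf4-/-*-EtOH replicates 1 and 2. The WT value passed with DESeq2 (-1.09, adjusted p = 0.0245), with no filter on low counts (-1.06), with the replicate block (-1.15), with only the 4 WT libraries in the fit (-1.09), and without WT-EtOH replicate 1 (-1.79, edgeR adjusted p = 0.0242), *Elf4-/-*-EtOH replicate 1 (-1.09) or *Elf4-/-*-EtOH replicate 2 (-1.10). The average passed without WT-EtOH replicate 1, at -0.76 (edgeR, adjusted p = 0.0453).

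*Cldn12*, a claudin whose tail lacks the motif that binds ZO proteins, lies on chromosome 5 at 5489537 to 5514958 on the minus strand. It was at 21.1 and 32.9 CPM in WT-Control, 41.1 and 42.7 CPM in WT-EtOH, 36.6 and 34.9 CPM in *Elf4-/-*-Control, and 35.9 and 41.8 CPM in *Elf4-/-*-EtOH. WT-Control held the lowest library and overlapped none of WT-EtOH, and the *Elf4-/-* groups overlapped. In WT its log2 fold change was 0.63 ± 0.23 (edgeR, adjusted p = 0.0721), in *Elf4-/-* it was 0.12 ± 0.22 (adjusted p = 0.80), and on average it was 0.38 ± 0.16 (adjusted p = 0.103). Without *Elf4-/-*-EtOH replicates 1 and 2 the *Elf4-/-* value was 0.22 and -0.02. The WT value passed without WT-Control replicate 2 (0.99), *Elf4-/-*-EtOH replicate 1 (0.63) or *Elf4-/-*-EtOH replicate 2 (0.63), with scaling by library totals (1.06) and with a minimum mean of 50 counts (0.69). The average passed without WT-Control replicate 2 (0.55) and with scaling by library totals (0.57).

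*Ocln*, on chromosome 13 at 100496507 to 100552718 on the minus strand, was the scarcest of the 9 in counts. Its levels were 20.0 and 18.8 CPM in WT-Control, 9.99 and 7.85 CPM in WT-EtOH, 22.4 and 11.3 CPM in *Elf4-/-*-Control, and 6.69 and 7.03 CPM in *Elf4-/-*-EtOH. All EtOH libraries were below all Control libraries, with *Elf4-/-*-Control replicate 2 closest to them. Averaged over genotypes its log2 fold change was -1.21 ± 0.23 (edgeR, adjusted p = 0.00464) and stayed past the threshold in all 8 fits with a library left out, at -1.41 to -0.92. It was -1.12 ± 0.32 in WT (edgeR, adjusted p = 0.035) and -1.31 ± 0.33 in *Elf4-/-* (adjusted p = 0.0629). The WT call was lost when any WT library was left out (-1.08 and -1.16 without WT-Control replicates 1 and 2, -1.30 and -0.96 without WT-EtOH replicates 1 and 2) and with scaling by library totals alone (-0.69). The *Elf4-/-* value passed with DESeq2 (-1.31, adjusted p = 0.0248) and with no filter on low counts (-1.32), and was -1.28 and -1.37 without *Elf4-/-*-EtOH replicates 1 and 2 (edgeR, adjusted p = 0.147 and 0.0605).

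*F11r*, an immunoglobulin-like adhesion protein found in epithelia and on blood cells, lies on chromosome 1 at 171437535 to 171464603 on the plus strand. It was at 38.2 and 36.2 CPM in WT-Control, 48.3 and 49.7 CPM in WT-EtOH, 51.0 and 42.4 CPM in *Elf4-/-*-Control, and 42.9 and 52.7 CPM in *Elf4-/-*-EtOH. Replicates agreed within 1.05-fold in WT-Control and 1.03-fold in WT-EtOH, and the WT groups did not overlap. In WT its log2 fold change was 0.40 ± 0.19 (edgeR, adjusted p = 0.163), and of all settings run it passed only with scaling by library totals (0.83, adjusted p = 0.0202). The value was 0.03 ± 0.19 in *Elf4-/-* (edgeR, adjusted p = 0.941) and 0.21 ± 0.13 on average (adjusted p = 0.256). Leaving out *Elf4-/-*-EtOH replicates 1 and 2 in turn gave 0.17 and -0.15 in *Elf4-/-*.

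*Tjp3* encodes ZO-3, a plaque protein of epithelia, and lies on chromosome 10 at 81273207 to 81291581 on the minus strand. It was at 40.3 and 30.2 CPM in WT-Control, 10.9 and 12.5 CPM in WT-EtOH, 24.2 and 19.8 CPM in *Elf4-/-*-Control, and 10.5 and 25.2 CPM in *Elf4-/-*-EtOH. The WT groups were far apart, while *Elf4-/-*-EtOH replicate 2 lay above both *Elf4-/-*-Control libraries and replicate 1 below them. The log2 fold change was -1.59 ± 0.35 in WT (edgeR, adjusted p = 0.0135), a 3.0-fold lower level, and -0.29 ± 0.35 in *Elf4-/-* (adjusted p = 0.671). The WT call was lost without WT-Control replicate 1 (-1.37), WT-EtOH replicate 1 (-1.49) or WT-EtOH replicate 2 (-1.70). With *Elf4-/-*-EtOH replicate 1 left out the *Elf4-/-* value became 0.19, and with replicate 2 left out it became -1.09 and passed (edgeR, adjusted p = 0.0354). Averaged over genotypes it was -0.94 ± 0.25 (edgeR, adjusted p = 0.0199), and this call was lost without WT-Control replicate 1 (-0.83), WT-EtOH replicate 1 (-0.90), WT-EtOH replicate 2 (-1.01) or *Elf4-/-*-Control replicate 1 (-0.87) and with scaling by library totals (-0.73). Exons of *Tjp3* overlap those of *Apba3* on the opposite strand, which had 143 to 315 counts and a log2 fold change of 0.05 in WT (edgeR, adjusted p = 0.879).

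*Tjp1*, on chromosome 7 at 65296165 to 65527781 on the minus strand, encodes ZO-1, the scaffold that binds claudins, occludin and actin. Its levels were 38.8 and 28.5 CPM in WT-Control, 32.1 and 31.4 CPM in WT-EtOH, 42.9 and 37.9 CPM in *Elf4-/-*-Control, and 37.0 and 33.6 CPM in *Elf4-/-*-EtOH. WT-EtOH lay between the WT-Control libraries, and all 8 libraries were within 28.5 to 42.9 CPM. The log2 fold change was -0.08 ± 0.20 in WT (edgeR, adjusted p = 0.795), -0.20 ± 0.20 in *Elf4-/-* (adjusted p = 0.609) and -0.14 ± 0.14 on average (adjusted p = 0.489). The *Elf4-/-* value was -0.27 and -0.15 without *Elf4-/-*-EtOH replicates 1 and 2. With scaling by library totals, which moved the median of all genes by 0.43 in WT and 0.20 on average, the value of *Tjp1* was 0.35 in WT and 0.06 on average.

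*Cgn*, on chromosome 3 at 94760069 to 94786492 on the minus strand, encodes a coiled-coil protein that links ZO proteins to myosin, and it varied widely between replicates. It was at 76.3 and 35.0 CPM in WT-Control, 32.1 and 42.5 CPM in WT-EtOH, 62.2 and 38.8 CPM in *Elf4-/-*-Control, and 29.2 and 63.7 CPM in *Elf4-/-*-EtOH. The replicates differed 2.18-fold in WT-Control and 2.18-fold in *Elf4-/-*-EtOH, and all groups overlapped. The log2 fold change averaged over genotypes was -0.35 ± 0.30 (edgeR, adjusted p = 0.415), and in WT it was -0.57 ± 0.43, or 0.09 without WT-Control replicate 1. In *Elf4-/-* it was -0.12 ± 0.42, and leaving out *Elf4-/-*-EtOH replicates 1 and 2 in turn gave 0.33 and -0.82.

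**Figure D2:**
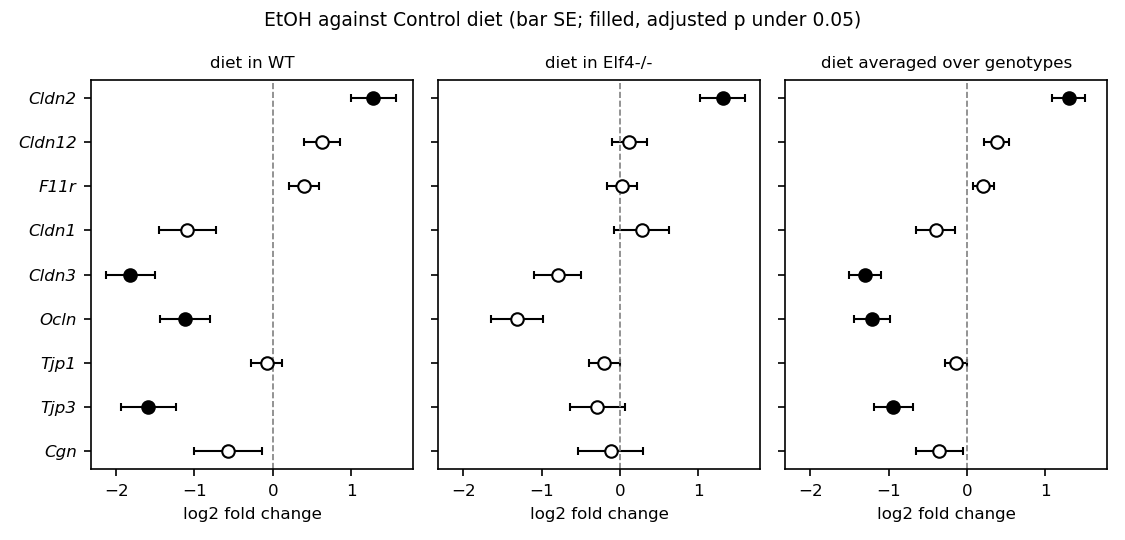
Log2 fold change of EtOH against Control for the 9 genes, in WT, in *Elf4-/-* and averaged over genotypes. Points are edgeR estimates, bars are 1 SE to each side, and filled points have an adjusted p under 0.05, which holds for 4 genes in WT, for *Cldn2* in *Elf4-/-*, and for 4 genes on average.

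In whole liver, fewer cells of a type and less RNA per cell cannot be told apart, and several marker lists moved with the diet beside these genes. The 7 pericentral hepatocyte genes summed to 3260 to 4100 CPM in WT-Control, 7930 to 9110 CPM in WT-EtOH, 3860 to 4340 CPM in *Elf4-/-*-Control and 8570 to 10900 CPM in *Elf4-/-*-EtOH, with 4 of 7 passing upward and 1 downward on average (edgeR). *Cyp2e1* was the largest part of this sum, at group means of 2480, 5210, 2620 and 4430 CPM in that order. The gene that passed downward was *Lgr5* (-0.98), and *Axin2* and *Rnf43* did not pass. The 6 periportal genes summed to 5090 to 6620, 1280 to 2520, 4570 to 7240 and 2590 to 4550 CPM in the same order, and 5 of 6 passed downward. *Pck1* was the largest part of the periportal sum, at group means of 4520, 1360, 4340 and 2480 CPM. Every EtOH library was above every Control library in the pericentral sum and below every Control library in the periportal sum. In each genotype the sum of the 6 general hepatocyte genes was also lower in both EtOH libraries than in both Control libraries, and 1 of the 6 passed on average, *Apoa1*, at -1.85 (edgeR, adjusted p = 0.00215).

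Among the other cell types, 6 sinusoidal endothelial genes summed to 46.4 to 83.5 CPM in WT-Control, 231 to 279 CPM in WT-EtOH, 124 CPM in both *Elf4-/-*-Control libraries and 124 to 191 CPM in *Elf4-/-*-EtOH, with 5 of 6 passing upward on average. The 6 Kupffer cell genes summed to 167 to 211, 558 to 619, 155 to 156 and 210 to 230 CPM, and the 6 stellate cell genes to 29.3 to 66.2, 230 to 299, 82.0 to 116 and 184 to 312 CPM. Of the bile duct, the defining markers *Krt19*, *Krt7* and *Epcam* had at most 18, 11 and 37 counts and *Cftr* at most 3. The part of these cell types in the differences of the tight junction genes was not tested. Of 8 intestinal epithelial genes 4 were in the table and summed to 165 to 203, 196 to 256, 221 to 247 and 180 to 205 CPM. Among them *Vil1* had 2 to 19 counts in a library and *Muc2* 0 to 14, whereas *Fabp2* had 211 to 910 and *Lgals4* 611 to 2149, and none of the 3 that were tested passed for diet or genotype on average (edgeR).

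The second comparison asked whether intestinal loss of *Elf4* changed the tight junction genes of the liver under either diet. No gene of the 9 passed under EtOH (edgeR), where 0.143% of all genes did, none under Control (0.0143% of all genes) and none averaged over diets (0.136%). DESeq2 also called 0 of the 9 in each, while it called 180, 79 and 118 of all genes. At an unadjusted p under 0.05 the counts were 0 of the 9 under EtOH, beside 10.5% of all genes, 1 under Control (*Cldn1*), beside 7.31%, and 0 on average, beside 7.94%. Log2 fold changes of *Elf4-/-* against WT ran from -0.37 (*Ocln*) to 0.66 (*Cldn3*) under EtOH, with SE of 0.19 to 0.43, and from -0.81 (*Cldn1*) to 0.40 (*Cldn12*) under Control, with SE of 0.19 to 0.42.

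*Tjp1* was 0.15 ± 0.20 higher under EtOH on the log2 scale (edgeR, adjusted p = 0.849) and 0.27 ± 0.20 higher under Control (adjusted p = 0.847), and the former value was 0.09 and 0.21 without *Elf4-/-*-EtOH replicates 1 and 2 and -0.08 with scaling by library totals. *Ocln* had a log2 fold change of -0.37 ± 0.34 under EtOH (edgeR, adjusted p = 0.766) and -0.18 ± 0.31 under Control (adjusted p = 0.946), the former at -0.33 and -0.41 without *Elf4-/-*-EtOH replicates 1 and 2 and the latter at 0.22 without *Elf4-/-*-Control replicate 2. The genotypes overlapped in *Tjp1* and *Ocln* under Control. Under EtOH both *Ocln* libraries of *Elf4-/-* were below both of WT, and both *Tjp1* libraries were above, by less than the test can separate. How many of all genes separate 2 libraries from 2 in this way was not counted.

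*Cldn3* had a log2 fold change of 0.66 ± 0.30 under EtOH (edgeR, adjusted p = 0.483), which rested on *Elf4-/-*-EtOH replicate 2. Without that library it was 0.02, and without replicate 1 it was 1.10 and passed (edgeR, adjusted p = 0.042). *Tjp3* was 0.62 ± 0.36 under EtOH (edgeR, adjusted p = 0.598), at -0.16 without replicate 2 and 1.11 without replicate 1. *Cldn1* was -0.81 ± 0.35 under Control (edgeR, adjusted p = 0.677), the 2 *Elf4-/-*-Control libraries (34.6 and 21.5 CPM) lying below the 2 of WT-Control (54.8 and 44.0 CPM).

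The third comparison asked whether the diet response differed between genotypes. No gene of the 9 passed for the interaction with edgeR, and neither did any other gene (0.0% of all genes tested). DESeq2 called 111 genes and 0 of the 9. By edgeR 3 of the 9 had an unadjusted p under 0.05, as had 10.1% of all genes. These were *Cldn1* at 1.37 ± 0.50 (edgeR, adjusted p = 0.408), *Tjp3* at 1.29 ± 0.49 (adjusted p = 0.425) and *Cldn3* at 1.03 ± 0.42 (adjusted p = 0.454), in log2 units of the diet response in *Elf4-/-* minus that in WT. Without *Elf4-/-*-EtOH replicate 1 the interaction of *Tjp3* was 1.78 and passed (edgeR, adjusted p = 0.0484). Over the 8 fits with a library left out the interaction of *Tjp3* ranged from 0.50 to 1.78, that of *Cldn3* from 0.38 to 1.47 and that of *Cldn1* from 0.88 to 2.06. With scaling by library totals, which moved the median interaction of all genes by -0.46, the values were 0.83 for *Tjp3*, 0.58 for *Cldn3* and 0.90 for *Cldn1*.

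**Figure D3:**
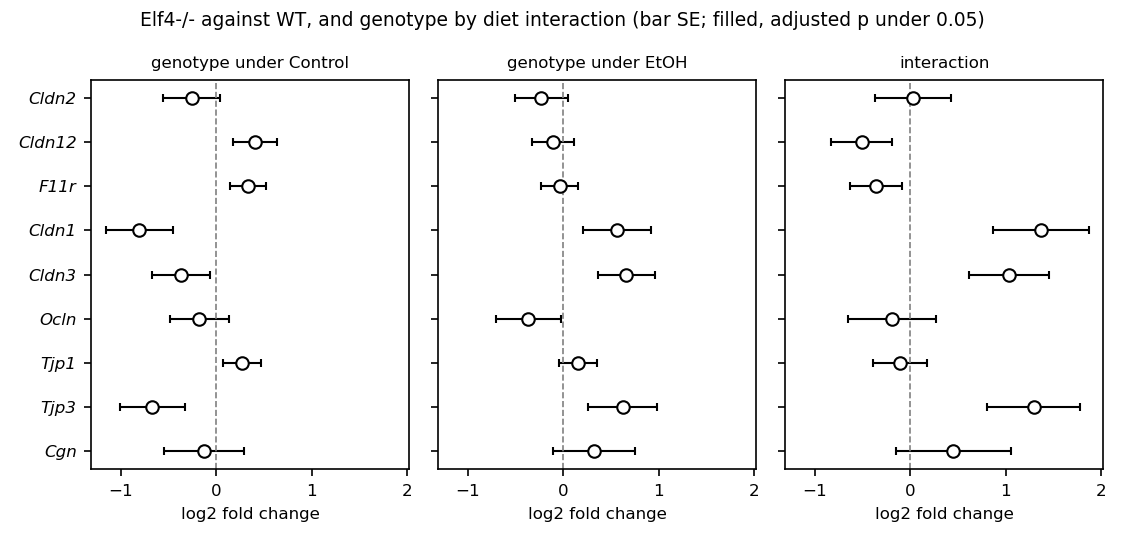
Log2 fold change of *Elf4-/-* against WT under Control and under EtOH, and the interaction of genotype and diet, for the 9 genes. Points are edgeR estimates, bars are 1 SE to each side, and open points have an adjusted p of 0.05 or more, which holds for every gene in all 3 panels.

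Levels of different genes were compared per kilobase of exon, scaled to the same total in each library (TPM). These values carry no TMM factors, so they compare genes within a group. Changes between groups are those given in CPM and by edgeR above. *Cldn3* was the highest of the 9 in all 4 groups, at a mean of 112 TPM in WT-Control, 114 TPM in *Elf4-/-*-Control, 52.8 TPM in WT-EtOH and 64.5 TPM in *Elf4-/-*-EtOH, and *F11r* came next in all 4 groups at 19.7, 32.6, 43.4 and 32.5 TPM. In no group did the libraries of *Cldn3* and *F11r* overlap, nor those of *F11r* and the gene that followed it. *Cldn2* was in place 7 in WT-Control (7.63 TPM) and place 8 in *Elf4-/-*-Control (8.21 TPM), where it overlapped its neighbours, and in place 3 in both EtOH groups (30.3 and 19.8 TPM), where it did not. Places 3 to 9 in WT-Control each overlapped the next, from *Cldn1* at 14.3 TPM through *Tjp3* (13.2), *Cgn* (12.6), *Cldn12* (9.15), *Cldn2* and *Ocln* (6.44) to *Tjp1* (6.00). *Ocln* was in place 9 in the other 3 groups, at 7.55 TPM in *Elf4-/-*-Control, 4.95 TPM in WT-EtOH and 2.94 TPM in *Elf4-/-*-EtOH, and in both EtOH groups its libraries did not overlap those of the gene above it.

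Since *Cldn2* and *Cldn3* moved in opposite directions, their ratio per kilobase of exon was read within each library, a measure chosen after their values were seen and given with no test. Under Control it was 0.0503 and 0.0803 in WT and 0.0795 and 0.0634 in *Elf4-/-*, and under EtOH it was 0.562 and 0.585 in WT and 0.463 and 0.237 in *Elf4-/-*. Every Control library was below every EtOH library, which follows from the separation of each of the 2 genes and adds nothing to it. *Elf4-/-*-EtOH replicate 2 had the lowest ratio of the EtOH libraries, as it had the highest *Cldn3*.

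**Figure D4:**
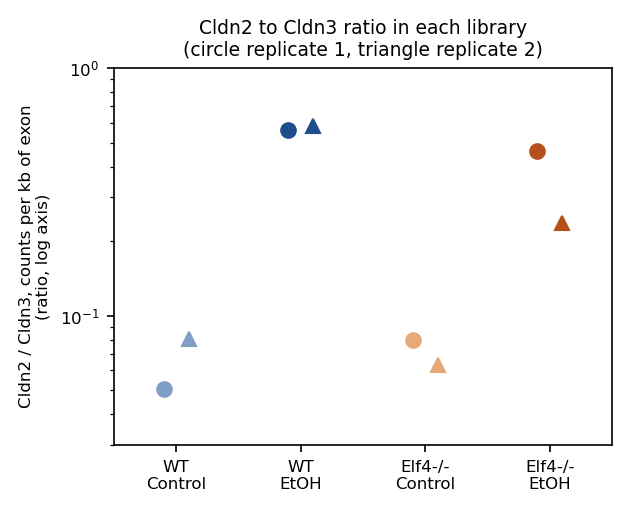
Ratio of *Cldn2* to *Cldn3* in counts per kilobase of exon in each library, on a logarithmic axis, by group. Circles are replicate 1 and triangles replicate 2. The Control libraries lie between 0.0503 and 0.0803 and the EtOH libraries between 0.237 and 0.585.

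The remaining genes of the junction were taken from a list of 46, of which 38 were in the table and 31 were tested. On average over genotypes 4 of the 31 passed upward and 6 downward (edgeR), beside 28.0% of all genes in either direction, and the median log2 difference was -0.02. In WT mice 4 passed upward and 6 downward, beside 21.6% of all genes, and in *Elf4-/-* mice 1 passed upward (*Ildr2*) and 0 downward, beside 2.89%. The count in WT was 10, and 2 without WT-EtOH replicate 2, 4 without WT-EtOH replicate 1 and 6 without either WT-Control library. The average count of 10 was 6 without *Elf4-/-*-Control replicate 2, and the *Elf4-/-* count was 2 without *Elf4-/-*-EtOH replicate 2.

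*Ildr2*, an angulin of the tricellular junction also known for a part in hepatic lipid metabolism, was at 10.8 and 12.5 CPM in WT-Control, 10.5 and 11.3 CPM in *Elf4-/-*-Control, 37.3 and 31.8 CPM in WT-EtOH, and 51.5 and 50.5 CPM in *Elf4-/-*-EtOH. The EtOH libraries were all far above the Control libraries, and those of *Elf4-/-* were the highest. Its log2 fold change on average was 1.90 ± 0.14 (edgeR, adjusted p = 0.00011). *Esam* (1.41 ± 0.24) and *Jam2* (1.64 ± 0.31), adhesion molecules known from endothelium, also rose on average, beside the endothelial marker sums given above. Their values were 2.2 and 2.17 in WT. In *Elf4-/-* they were 0.61 and 1.1, and neither passed there (edgeR, adjusted p = 0.299 and 0.175). *Afdn* (-0.77 ± 0.13) and *Mpdz* (-1.0 ± 0.19), which encode the plaque scaffolds afadin and MUPP1, fell on average, as did *Prkcz* (-0.77 ± 0.17), which encodes a kinase of the polarity complex.

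**Figure D5:**
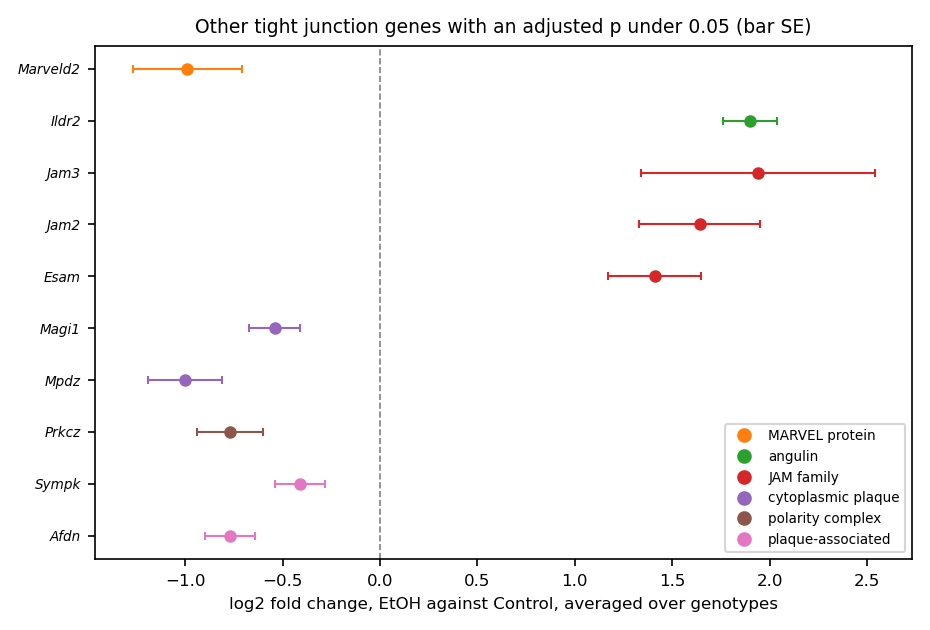
Log2 fold change of EtOH against Control, averaged over genotypes, for the 10 of 31 other tight junction genes with an adjusted p under 0.05, coloured by class. Points are edgeR estimates and bars are 1 SE to each side. *Ildr2* and 3 genes of the JAM family lie to the right of 0, and 6 genes, *Mpdz*, *Prkcz* and *Afdn* among them, lie to the left. Of the JAM family genes shown, 1 had only 1 to 18 counts in a library.

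Of 16 genes of adherens, gap and desmosomal junctions, all tested, 1 passed upward and 2 downward on average (edgeR), a share below the 28.0% of all genes. *Cdh1*, which encodes the E-cadherin of epithelial adherens junctions and in liver is strongest around the portal tract, was at 29.8 and 40.1 CPM in WT-Control, 46.5 and 30.4 CPM in *Elf4-/-*-Control, 5.56 and 5.20 CPM in WT-EtOH, and 4.46 and 20.0 CPM in *Elf4-/-*-EtOH. *Elf4-/-*-EtOH replicate 2 stood between the other EtOH libraries and the Control libraries, as it did for *Cldn3*. The log2 fold change of *Cdh1* was -2.17 ± 0.37 (edgeR, adjusted p = 0.00278). *Gja1*, the connexin 43 gene, rose by 1.62 ± 0.31 with 5 to 62 counts, and *Cdh2*, the N-cadherin gene, fell by 0.45 ± 0.13 on the log2 scale. The *Cdh2* call was lost without WT-Control replicate 1 (-0.38), either WT-EtOH library (-0.48 and -0.45), either *Elf4-/-*-Control library (-0.49 and -0.42) or *Elf4-/-*-EtOH replicate 1 (-0.42). It was also lost with scaling by library totals (-0.25, edgeR adjusted p = 0.197).

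For each gene the pair of genes with the closest pattern was taken by Pearson's r of log2 CPM over the 8 libraries, among 9389 genes averaging at least 50 counts. The libraries share diet and depth, so r is a description. *Cldn3* was closest to *Gnat1* (r = 0.993) and *H2-T10* (0.991), *Cldn2* to *Gnl3* (0.986) and *Vapb* (0.985), *Ocln* to *Setd1b* (0.984) and *Atrx* (0.973), and *Tjp3* to *Phldb3* (0.985) and *Senp6* (0.985). *Cldn12* was closest to *Dmac1* (0.989) and *Rps28* (0.975), and *F11r* to *Snx8* (0.969) and *Ccnh* (0.957). *Cldn1* was closest to *Gm13613* (0.945) and to another claudin gene, *Cldn14* (0.944), *Cgn* to *Phtf1os* (0.955) and *Haus3* (0.946), and *Tjp1* to *Zdhhc17* (0.917) and *Pcnt* (0.913).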

How the data were processed

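RNA of mouse liver was extracted with Trizol, and the authors sequenced paired-end libraries on the Illumina HiSeq platform. The authors checked reads with FastQC, mapped them to mm10 with HISAT2, sorted the alignments (SAMtools) and obtained gene counts from HTSeq. Versions, gene annotation and strand setting were not given in the sources used here. The deposited table holds raw whole-number counts per gene symbol, made by the authors, not normalized, with 1 column per library and replicates not pooled. Blank lines and 2 empty columns were left out. The table holds no total or unassigned row.

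Genes were filtered with filterByExpr by group, scaled by TMM and tested with edgeR 4.0.16 under R 4.3.3 in 1 fit of all 8 libraries with 1 coefficient for each of the 4 groups, which left 4 residual degrees of freedom. The script was tested on simulated data. Contrasts were diet in each genotype and averaged, genotype under each diet and averaged, and the interaction, each adjusted by Benjamini-Hochberg over 13993 genes with a threshold of 0.05. DESeq2 1.42.0 (Wald test), which the authors had used, other scalings and filters, the replicate number as a block, single libraries left out and fits of only the 4 libraries compared were alternatives.

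Coordinates and exon lengths came from GENCODE M21 (GRCm38), which matched 98.7% of symbols, and promoters from RefSeq (GRCm38.p6). Library totals of 6171051 to 9157362 counts limit the precision of the scarcer genes, and errors given for counts cover counting only, because PCR copies were not separated. The 9 genes were always named. Of the other tight junction and other junction lists, up to 6 genes of the smallest adjusted p each were named, and for each of the 9 the 2 genes of highest correlation. *Wbscr25* and *Apba3* were added because they overlap a gene of the 9. A gene of the first list and a bile duct marker, with the summed level that rests on it, are not reported here. The genes, lists and marker genes were chosen with earlier results of these data known.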

Additional observations from a re-analysis of the deposited data

How the results depend on the processing

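In the diet comparison averaged over genotypes 4 of the 9 genes passed, and the count was 4 under every other setting, although with library totals alone *Cldn12* (0.57, edgeR adjusted p = 0.0354) passed and *Tjp3* (-0.73, adjusted p = 0.0611) did not. With a library left out it was 3 to 5. In WT it was 4, with 4 or 5 under other settings and 0 to 6 with a library left out. In *Elf4-/-* it was 1, but 0 with library totals alone, with only the 4 libraries compared and with the replicate block, 2 with no filter and with DESeq2, and 0 to 3 with a library left out. With a library left out it was 0 to 1 for genotype under EtOH and for the interaction. Of the other tight junction genes, with a library left out, 2 to 12 passed in WT, 1 to 2 in *Elf4-/-* and 6 to 13 on average. Of other junction genes, 3 passed in WT but 5 with library totals alone, and 0 in *Elf4-/-* but 1 with DESeq2, and with a library left out 0 to 4 and 0 to 1.

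Library totals alone moved the median log2 difference of all genes by 0.43 in WT, 0.20 on average, -0.23 for genotype under EtOH, 0.23 under Control and -0.46 for the interaction, and turned the sign of *Tjp1* for diet in WT (0.35) and on average (0.06), *Tjp1* for genotype under EtOH (-0.08), *F11r* for diet in *Elf4-/-* (-0.0033) and *Ocln* for genotype under Control (0.07). None of these had passed.

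With a library left out, the sign turned for diet in WT of *Tjp1* (-0.29 to 0.15) and *Cgn* (-1.03 to 0.09), for diet in *Elf4-/-* of *Cldn1* (-0.02 to 0.67), *Cldn12* (-0.02 to 0.22), *F11r* (-0.15 to 0.17), *Tjp3* (-1.09 to 0.19) and *Cgn* (-0.82 to 0.33), and for genotype of *Ocln* under Control (-0.76 to 0.22) and *Tjp3* under EtOH (-0.16 to 1.11). The cause was not tested.

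The labels do not say whether the replicate numbers pair the libraries. Deviations of same-numbered libraries correlated at -0.109 to 0.059 between groups, which shows no strong shared deviation and does not decide the pairing. With the replicate block 5 of the 9 passed in WT, *Cldn1* being added, and *Cldn2* in *Elf4-/-* was lost. Crossing the numbers in WT-EtOH, chosen after seeing the data, gave 4. Depth limits *Ocln* most, at a counting error of up to 15.4% in a library.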
